A study of Mus musculus with 6 samples.

Results

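The sarcomere and muscle genes described here are 42 listed genes of skeletal muscle fibres: myosin heavy and light chains, actins, troponins, tropomyosins, the giant scaffold proteins, Z-disc and M-band proteins, and the calcium and energy proteins of the fibre. The members were taken from that list by symbol, and the list was chosen with earlier results of these data known. Of the 42, 41 matched a row among the 22824 rows of each library. Acta1 was not analysed here. By their usual fibre type, 14 of the 41 are fast, 9 slow and 3 developmental, 12 are shared by striated muscle fibres, and 3 are tropomyosins that other cells also express.

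RNA of mouse femurs (strain C57BL/6, total RNA, paired-end sequencing) was compared between 3 OE and 3 Ctrl libraries. OE mice carried 9.6kb DMP1-Cre together with R26-Wnt7b, an allele at the R26 locus that Cre switches on, and were homozygous per the labels. Ctrl mice were littermates with R26-Wnt7b and no Cre, so both groups carry the Wnt7b allele. Dmp1 sequence drives Cre in osteocytes and mature osteoblasts, and activity of Dmp1-Cre in skeletal muscle fibres has also been described. Neither age nor sex is given in the labels. The labels describe the bones as cleared of cartilage and marrow and do not mention muscle. The labels do not say whether each library came from its own animal, and p-values therefore measure only the spread between these libraries, which may be technical.

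A sarcomere contracts when myosin heads on thick filaments pull on actin in thin filaments. Calcium released from the sarcoplasmic reticulum binds troponin C and, through troponins I and T and tropomyosin, frees actin for myosin. Most of these proteins are made from separate genes in fast and in slow fibres, and embryonic muscle uses further isoforms. In mice, limb muscle is mostly fast, with the soleus of the lower leg as the slow muscle, and muscle attaches to the femur along the periosteum. Muscle left on a bone at dissection adds its RNA to that of the bone, and the list serves here as a measure of it in each library.

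Levels are FPKM, that is fragments relative to transcript length and to all mapped fragments. No counts are given, so absolute depth is unknown, and the step size of low values gave relative depths of 1 to 1.18. Total FPKM ran from 596413 to 775942. The neutrophil genes S100a8 and S100a9 took 7.25% to 16.3% of it, and haemoglobin genes 7.45% in OE 3 against 0.220% to 1.26% elsewhere, so marrow RNA was present in each library. Wnt7b stood at 2.49, 0.661 and 0.295 FPKM in OE 1, 2 and 3. The library labelled Ctrl 1 had 0.909, Ctrl 2 had 0.00833, and Ctrl 3 lists the gene at 0. Wnt7b in the library labelled Ctrl 1 thus goes against its label, and that library counts as Ctrl in every group comparison below except where it is said to be left out.

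Muscle RNA was present in every library, and Ctrl 2 and Ctrl 3 held the least. The 38 members other than tropomyosins summed to 2732, 2114 and 2761 FPKM across OE 1, 2 and 3. Their sum was 2450.2 for the library labelled Ctrl 1 against 436 and 636 for Ctrl 2 and 3. As a share of all FPKM these were 0.444%, 0.273% and 0.463% for the OE libraries, with 0.334% for the library labelled Ctrl 1 against 0.0571% and 0.103% for Ctrl 2 and 3. The group shares were 0.393% ± 0.105 for OE against 0.165% ± 0.149 for Ctrl (SD, n = 3), and the library labelled Ctrl 1 lay within the OE range. Ctrl 2 and Ctrl 3 were the 2 lowest libraries in 36 of the 41 members. The exceptions were Myh7, Myh8, Myom1, Ryr1 and Tpm3. The share of all genes with this order was not computed, here or for the lists below. Among the 12017 genes tested without the library labelled Ctrl 1, all OE values lay above Ctrl 2 and Ctrl 3 in 17.7%. In these bulk samples fewer muscle fibres and less RNA per fibre cannot be told apart.

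**Figure D1:**
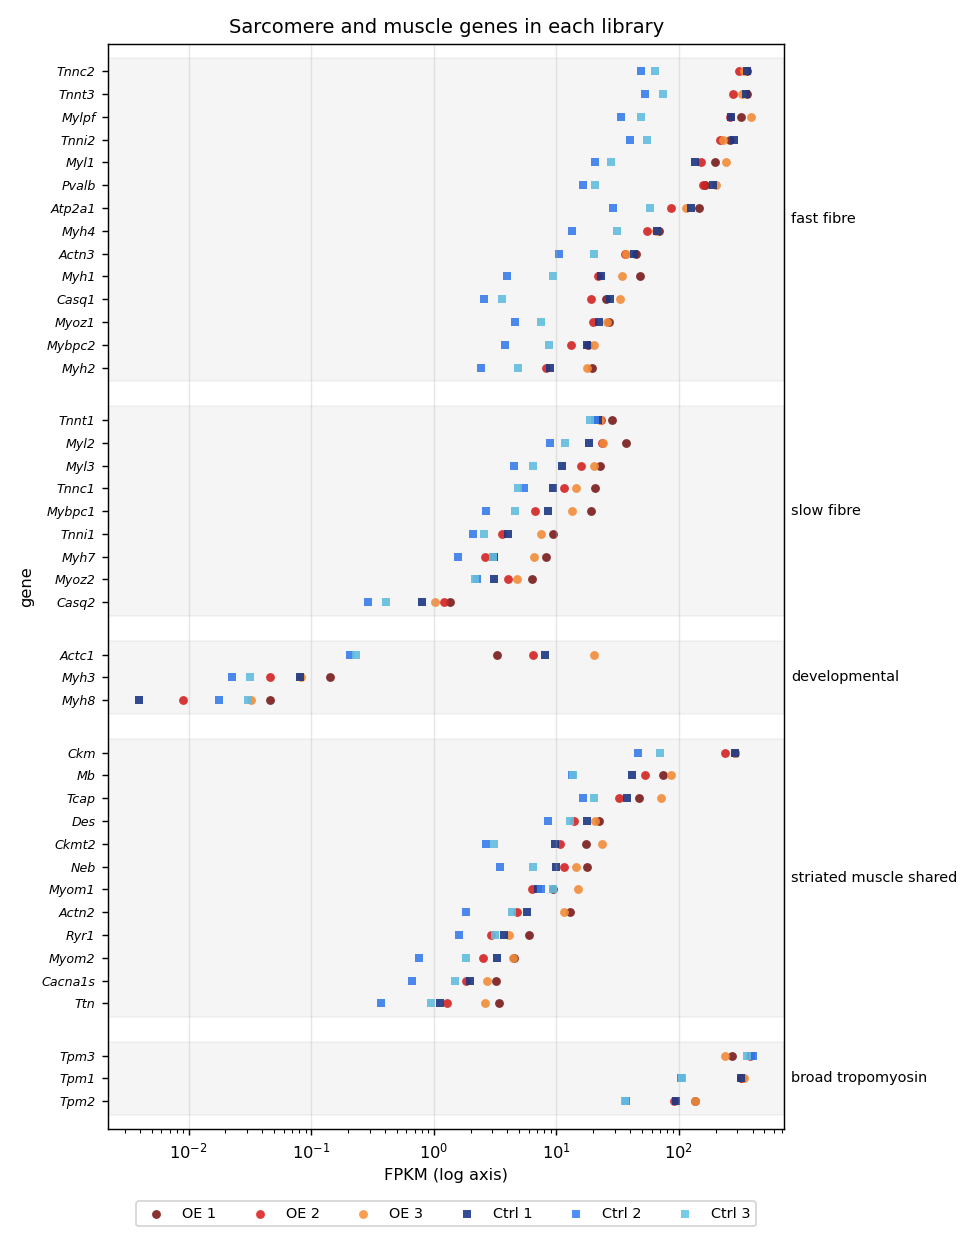
FPKM of the 41 genes on a log axis, with 1 row per gene, circles for OE libraries and squares for Ctrl libraries, grouped by fibre type. The library labelled Ctrl 1 sits among the OE circles for most fast genes, while Ctrl 2 and Ctrl 3 are the 2 lowest in 36 of the 41 rows.

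No member passed the test between OE and Ctrl with all 6 libraries. The test was limma on log2(FPKM + 1), with adjusted p-values over the 12177 genes that reached 1 FPKM in at least 3 libraries and a threshold of 0.05. It called 0 genes of 12177 (0%), with 502 higher and 497 lower in OE at an unadjusted p under 0.05, and limma without the mean trend also called 0. Of the 41 members 39 were tested; Myh3 and Myh8 were below the filter. Casq2 passed it through the OE libraries alone, so it had to differ; without it the counts that follow are 37 of 38 positive, 21 at an unadjusted p under 0.05 and 10 without overlap. Among the 39, 38 had a positive difference, with a median of 1.10 beside -0.04 for all genes tested, of which 43.7% were positive. At an unadjusted p under 0.05, 22 members were higher in OE, where 4.12% of all genes were. In either direction, members at that p were 9 without OE 1, without OE 3 or without Ctrl 3, 8 without Ctrl 2 and 21 without OE 2. Over all genes, 152 were higher and 209 lower of 11988 without OE 1, and 355 and 355 of 11970 without OE 3. They were 133 and 329 of 12017 without Ctrl 3, 76 and 88 of 12039 without Ctrl 2, and 459 and 972 of 12032 without OE 2. Without the library labelled Ctrl 1, 34 members were higher at that p, beside 11.3% of all genes. Casq2, Ttn and Actc1, among these 34, passed that filter through the OE libraries alone. In 11 members the lowest OE value exceeded the highest Ctrl value, as in 4.59% of all genes; the reverse held in 0 members and in 8.97% of all genes. The smallest adjusted p of a member was 0.554.

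Left without the library labelled Ctrl 1, the comparison of 3 OE with 2 Ctrl libraries called 605 of 12017 genes (5.03%), 525 higher (4.37%) and 80 lower (0.666%) in OE. Of the 39 members 19 were called higher and 0 lower, with a median difference of 1.44 beside -0.07 for all genes. The calls fell on 10 of 14 fast genes, 3 of 9 slow genes, 4 of 12 shared genes and 2 of 3 tropomyosins. Osteoblast and osteocyte genes were called higher in the same comparison in 8 of 12. So were 9 of 9 cartilage genes tested and 4 of 6 tendon and periosteum genes tested. Of the 9 cartilage genes, all but Col2a1, Comp and Col11a2 passed the filter through the OE libraries alone, so they had to differ. The same held for the called tendon and periosteum genes other than Postn, Fmod and Aspn. Most of the cartilage count was thus fixed by the filter. Values are given below among the other cell types.

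**Figure D2:**
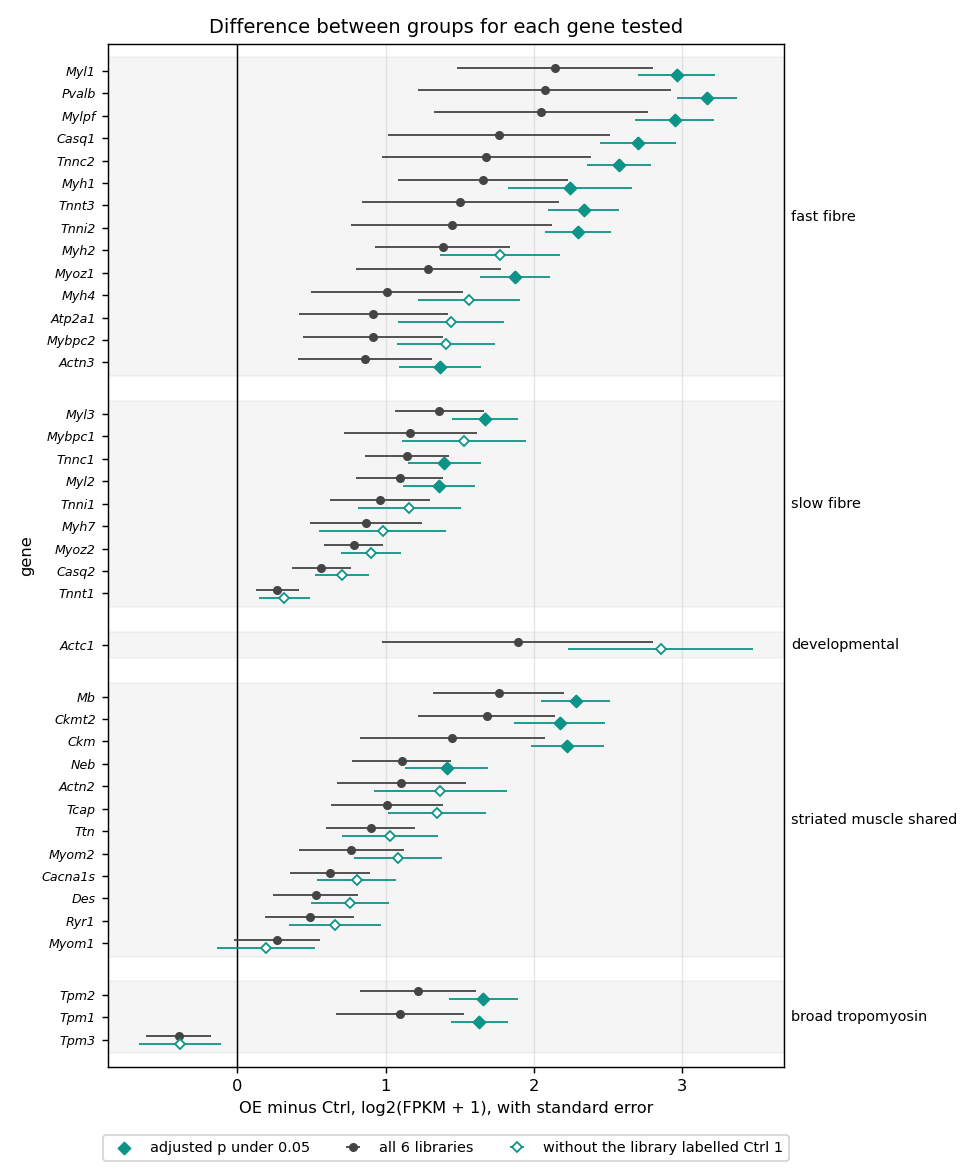
OE minus Ctrl difference in log2(FPKM + 1) with its standard error for the 39 genes tested, in circles for all 6 libraries and in diamonds without the library labelled Ctrl 1. Filled diamonds are the 19 genes with an adjusted p under 0.05, and no circle passed.

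Promoter sequences of 4 members are shown because their genes stand for the patterns described next: Myh4 and Tnnc2 for the fast genes, Tnnt1 for the slow gene that differed least, and Actc1 for the gene with the widest range. They come from RefSeq on GRCm38.p6, run 5′ to 3′ from 250 bases before to 50 after the RefSeq start, and carry capitals at 3 motifs. These are the E-box CANNTG, bound by MyoD-family factors, the CArG box, bound by serum response factor, and the MEF2 site. Both strands were searched, and no 2 motifs overlapped in a member promoter.
Myh4, chr11:67237562-67237861, plus strand: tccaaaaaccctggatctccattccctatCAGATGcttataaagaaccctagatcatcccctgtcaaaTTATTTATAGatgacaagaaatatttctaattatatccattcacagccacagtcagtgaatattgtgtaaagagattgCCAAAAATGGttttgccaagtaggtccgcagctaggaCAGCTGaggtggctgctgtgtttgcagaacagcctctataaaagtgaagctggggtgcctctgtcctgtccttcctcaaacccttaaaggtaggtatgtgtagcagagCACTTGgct
Tnnc2, chr2:164779685-164779984, minus strand: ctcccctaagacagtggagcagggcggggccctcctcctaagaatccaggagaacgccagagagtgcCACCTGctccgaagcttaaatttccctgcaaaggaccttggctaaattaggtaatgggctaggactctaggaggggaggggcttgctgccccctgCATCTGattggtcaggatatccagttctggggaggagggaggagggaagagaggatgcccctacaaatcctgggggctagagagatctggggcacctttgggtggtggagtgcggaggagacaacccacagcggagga
Tnnt1, chr7:4515926-4516225, minus strand: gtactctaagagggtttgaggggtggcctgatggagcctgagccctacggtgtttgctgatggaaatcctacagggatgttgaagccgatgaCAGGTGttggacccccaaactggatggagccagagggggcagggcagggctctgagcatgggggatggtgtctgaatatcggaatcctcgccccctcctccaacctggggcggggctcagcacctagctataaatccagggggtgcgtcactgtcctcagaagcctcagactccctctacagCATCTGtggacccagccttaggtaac
Actc1, chr2:114052826-114053125, minus strand: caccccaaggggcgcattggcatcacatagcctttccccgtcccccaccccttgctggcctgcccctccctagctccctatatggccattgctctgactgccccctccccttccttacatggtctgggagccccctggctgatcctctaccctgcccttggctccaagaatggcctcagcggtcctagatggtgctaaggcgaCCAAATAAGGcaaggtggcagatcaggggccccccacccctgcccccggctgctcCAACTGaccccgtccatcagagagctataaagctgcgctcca
Myh4 carries 3 E-boxes, 1 CArG box and 1 MEF2 site, Tnnc2 and Tnnt1 carry 2 E-boxes each, and Actc1 carries 1 E-box and 1 CArG box. The table held 42 promoters for 35 of the 42 listed genes. An E-box stood in 38 of the 42 (90.5%), against 72.3% of all 32851 promoters of that length. A CArG box stood in 5 of the 42 (11.9%), in Acta1, Actc1, Myh4, Myl3 and Myom1, against 1.63% of all promoters. A MEF2 site stood in 7 of the 42 (16.7%), in Casq2, Myh1, Myh4, Myh8, Myoz2, Pvalb and Ttn, against 3.19%. A match is a description of letters, and no match says only that the letters are not in this window.

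All 14 fast genes were lowest in Ctrl 2, and in 13 of them the level of the library labelled Ctrl 1 was no lower than the OE minimum. Tnnc2, the calcium-binding subunit of fast troponin, measured 363, 308 and 341 FPKM across OE 1, 2 and 3, the order used throughout, with 364 for the library labelled Ctrl 1 against 48.8 and 63.5 for Ctrl 2 and 3. The library labelled Ctrl 1 was the highest of the 6 and the other Ctrl libraries the lowest, so the groups overlapped. The difference was 1.68 (SE 0.71, limma adjusted p = 0.554), and 2.58 (SE 0.21, limma adjusted p = 0.00384) without the library labelled Ctrl 1. Tnni2, the inhibitory subunit, measured 262, 217 and 231 FPKM across the OE libraries, with 283 for the library labelled Ctrl 1 against 40.2 and 55.3 for Ctrl 2 and 3. Tnnt3, the tropomyosin-binding subunit, measured 359, 276 and 327 FPKM across the OE libraries, with 355 for the library labelled Ctrl 1 against 52.8 and 73.8 for Ctrl 2 and 3. In each of the 3 fast troponin genes Ctrl 2 was lowest, Ctrl 3 next and the library labelled Ctrl 1 close to the OE libraries. Tnni2 and Tnnt3 lie near each other on chromosome 7 (GRCm38), at 142441808 to 142444410 and 142498836 to 142516009, and Tnnc2 on chromosome 2, at 164777161 to 164779967.

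Both fast myosin light chains were highest in OE 3 and lowest in Ctrl 2. Mylpf, the regulatory light chain of fast fibres, measured 324, 261 and 386 FPKM across the OE libraries, with 269 for the library labelled Ctrl 1 against 33.5 and 48.9 for Ctrl 2 and 3. Myl1, the essential light chain, measured 199, 153 and 241 FPKM across the OE libraries, with 136 for the library labelled Ctrl 1 against 20.6 and 27.9 for Ctrl 2 and 3. Myl1 was the only fast gene of the 14 whose OE and Ctrl values did not overlap, and its difference was 2.14 (SE 0.66, limma adjusted p = 0.554). Without the library labelled Ctrl 1 the differences were 2.96 (SE 0.26) for Myl1 and 2.95 (SE 0.27) for Mylpf, with limma adjusted p = 0.00426 and 0.00444.

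Calcium-handling genes of fast fibres were also lowest in Ctrl 2. Pvalb, which encodes the calcium buffer parvalbumin, measured 163, 158 and 202 FPKM across the OE libraries, with 189 for the library labelled Ctrl 1 against 16.4 and 20.6 for Ctrl 2 and 3. Without the library labelled Ctrl 1 Pvalb had the largest difference of the members tested, at 3.17 (SE 0.20, limma adjusted p = 0.00295). Casq1, the calcium-storing calsequestrin of the sarcoplasmic reticulum, measured 25.7, 19.3 and 33.4 FPKM across the OE libraries, with 27.7 for the library labelled Ctrl 1 against 2.57 and 3.63 for Ctrl 2 and 3. Highest over lowest library came to 13.0 for Casq1 and 12.3 for Pvalb. Atp2a1, the calcium pump of fast fibres, measured 148, 86.3 and 116 FPKM across the OE libraries, with 125 for the library labelled Ctrl 1 against 29.1 and 58.3 for Ctrl 2 and 3, a ratio of 5.06. Actn3, the fast Z-disc actinin, Mybpc2, fast myosin-binding protein C, and Myoz1, a Z-disc calcineurin partner, ranged over 4.24, 5.35 and 5.89 between libraries, each lowest in Ctrl 2. Of these, Actn3 and Myoz1 were called without the library labelled Ctrl 1 and Atp2a1 and Mybpc2 were not (limma adjusted p = 0.0881 and 0.0739).

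Slow genes were less abundant, and each of the 9 was highest in OE 1. The OE and Ctrl values did not overlap in 6 of 9 slow genes (Myl2, Myl3, Tnnc1, Tnnt1, Myoz2 and Casq2) and in 1 of 14 fast genes, where 4.59% of all genes did so; the difference between these counts was not tested. Casq2 had to differ to pass the filter, and without it the slow count is 5 of 8. Myl3, the slow essential light chain, measured 22.8, 15.8 and 20.5 FPKM across the OE libraries, with 11.2 for the library labelled Ctrl 1 against 4.54 and 6.50 for Ctrl 2 and 3. It had the smallest p of all members with 6 libraries, at a difference of 1.36 (SE 0.30, limma adjusted p = 0.554). Myl2, the slow regulatory light chain, measured 36.9, 23.7 and 24.1 FPKM across the OE libraries, with 18.4 for the library labelled Ctrl 1 against 8.82 and 11.7 for Ctrl 2 and 3. Tnnc1, slow and cardiac troponin C, measured 20.6, 11.6 and 14.5 FPKM across the OE libraries, with 9.38 for the library labelled Ctrl 1 against 5.47 and 4.84 for Ctrl 2 and 3. In these 3 genes the library labelled Ctrl 1 lay between the OE libraries and the other Ctrl libraries. Each was called without the library labelled Ctrl 1, at limma adjusted p = 0.0123 for Myl3, 0.0333 for Myl2 and 0.0305 for Tnnc1.

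Of the remaining slow genes, Tnni1, Myh7 and Mybpc1 overlapped between the groups, and Tnnt1, Myoz2 and Casq2 did not. Tnni1, slow troponin I, measured 9.46, 3.62 and 7.47 FPKM across the OE libraries, with 4.02 for the library labelled Ctrl 1 against 2.09 and 2.58 for Ctrl 2 and 3. Myh7, the slow myosin heavy chain, measured 8.31, 2.62 and 6.63 FPKM across the OE libraries, with 3.09 for the library labelled Ctrl 1 against 1.57 and 3.05 for Ctrl 2 and 3, so OE 2 lay below Ctrl 3. Reads of Myh7 and the cardiac gene Myh6 may be shared, and Myh6 itself stayed between 0 and 0.184 FPKM. Tnnt1, slow troponin T, measured 28.7, 23.3 and 22.8 FPKM across the OE libraries, with 21.9 for the library labelled Ctrl 1 against 20.7 and 18.7 for Ctrl 2 and 3. Its highest library was 1.53 times its lowest, the smallest range of the 41 members, and its difference was 0.27 (SE 0.15, limma adjusted p = 0.562). Mybpc1, Myoz2 and Casq2, the slow partners of fast genes above, ranged over 7.16, 2.96 and 4.69 between libraries.

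The genes shared by striated fibres include 3 of energy supply, which ranged over 6.22 (Ckm), 6.43 (Mb) and 8.85 (Ckmt2) between the highest and lowest library. Ckm, the muscle creatine kinase, measured 285, 240.4 and 289 FPKM across the OE libraries, with 290.1 for the library labelled Ctrl 1 against 46.6 and 69.9 for Ctrl 2 and 3. Mb, the oxygen-binding myoglobin, measured 74.0, 53.1 and 86.9 FPKM across the OE libraries, with 41.8 for the library labelled Ctrl 1 against 13.5 and 13.7 for Ctrl 2 and 3. Ckmt2, the mitochondrial creatine kinase of muscle, measured 17.6, 10.8 and 23.5 FPKM across the OE libraries, with 9.80 for the library labelled Ctrl 1 against 2.66 and 3.13 for Ctrl 2 and 3. The groups did not overlap for Mb and Ckmt2 and overlapped for Ckm. Differences were 1.76 (SE 0.44) for Mb, 1.68 (SE 0.46) for Ckmt2 and 1.45 (SE 0.62) for Ckm, each at limma adjusted p = 0.554. Without the library labelled Ctrl 1 they were 2.28, 2.17 and 2.23, with limma adjusted p = 0.00689, 0.0157 and 0.00793.

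Among the scaffold and coupling genes, highest over lowest library ranged from 2.38 for Myom1 to 9.25 for Ttn. Ttn, titin, the spring that spans the sarcomere, measured 3.44, 1.29 and 2.62 FPKM across the OE libraries, with 1.13 for the library labelled Ctrl 1 against 0.372 and 0.945 for Ctrl 2 and 3. Neb, nebulin, which lines the thin filament, measured 17.8, 11.6 and 14.6 FPKM across the OE libraries, with 9.88 for the library labelled Ctrl 1 against 3.47 and 6.52 for Ctrl 2 and 3. OE values lay above Ctrl values in both genes. Ryr1, the calcium release channel, measured 6.00, 2.96 and 4.11 FPKM across the OE libraries, with 3.72 for the library labelled Ctrl 1 against 1.60 and 3.18 for Ctrl 2 and 3. Cacna1s, the voltage sensor that opens it, averaged 2.61 ± 0.719 FPKM for OE against 1.38 ± 0.662 for Ctrl (SD, n = 3). Actn2 and Tcap, of the Z-disc, averaged 9.78 ± 4.37 and 50.6 ± 19.9 FPKM for OE against 3.98 ± 1.98 and 24.8 ± 11.3 for Ctrl (SD, n = 3). Des, the intermediate filament desmin, which smooth muscle also makes, averaged 19.1 ± 4.51 and 13.2 ± 4.62 FPKM (SD, n = 3). Myom1, an M-band protein, measured 9.5, 6.35 and 15.1 FPKM across the OE libraries, with 7.11 for the library labelled Ctrl 1 against 7.45 and 9.45 for Ctrl 2 and 3, with its lowest value in OE 2. Myom2, its relative, was lowest in Ctrl 2 at 0.760 FPKM and reached 4.50 in OE 1.

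Tropomyosins split. Tpm1 measured 326, 322 and 343 FPKM across the OE libraries, with 324 for the library labelled Ctrl 1 against 105 and 107 for Ctrl 2 and 3. Tpm2 measured 136, 90.6 and 136 FPKM across the OE libraries, with 94.1 for the library labelled Ctrl 1 against 37.4 and 36.4 for Ctrl 2 and 3. Tpm3, which encodes slow-fibre and widely expressed forms, measured 274, 384 and 238 FPKM across the OE libraries, with 390 for the library labelled Ctrl 1 against 407 and 360 for Ctrl 2 and 3. Tpm3 was the only member tested with a negative difference, -0.39 (SE 0.22, limma adjusted p = 0.563), and OE 2 overlapped the Ctrl libraries. Gene-level FPKM does not tell the muscle forms of these genes from the others. Tpm1 and Tpm2 were called without the library labelled Ctrl 1 (limma adjusted p = 0.00986 and 0.0157) and Tpm3 was not (limma adjusted p = 0.57).

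Developmental isoforms were near 0 except for Actc1. Myh3, the embryonic myosin heavy chain, stood between 0.0228 and 0.143 FPKM, and Myh8, the perinatal one, between 0.00394 and 0.0464. Actc1, cardiac alpha-actin, which embryonic skeletal muscle also makes, measured 3.27, 6.52 and 20.5 FPKM across the OE libraries, with 8.11 for the library labelled Ctrl 1 against 0.208 and 0.234 for Ctrl 2 and 3. The highest library was 98.5 times the lowest, the widest range of the 41 members. OE 1 and OE 2 lay below the library labelled Ctrl 1 and OE 3 above it, and the difference was 1.89 (SE 0.91, limma adjusted p = 0.558). Myl4, an embryonic and atrial myosin light chain outside the list, was also highest in OE 3, at 12.3 FPKM, with 4.98 and 9.47 in OE 1 and OE 2, 6.09 for the library labelled Ctrl 1, 2.90 for Ctrl 2 and 1.196 for Ctrl 3. In OE 3, erythroid and B-cell markers were highest too, 7 of 7 in each list; their part in these values was not tested.

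The heavy chain make-up was mostly fast in all libraries. Of the summed FPKM of the 6 sarcomeric heavy chain genes (Myh1, Myh2, Myh4, Myh7, Myh3 and Myh8), the fast genes took 94.2%, 96.9% and 94.5% across the OE libraries, with 96.9% for the library labelled Ctrl 1 against 92.5% and 93.6% for Ctrl 2 and 3. Slow Myh7 took 5.70%, 3.0% and 5.37% across the OE libraries, with 3.02% for the library labelled Ctrl 1 against 7.31% and 6.26% for Ctrl 2 and 3. The developmental genes took between 0.0632% and 0.189%. The slow share was 4.69% ± 1.48 for OE against 5.53% ± 2.24 for Ctrl (SD, n = 3), a difference within the spread of either group. The longest annotated transcripts of the 6 genes are of like length, 6016 to 6230 bases.

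Within the fast heavy chains the shares of Myh1 and Myh4 varied between libraries. Myh4, the IIb chain of the fastest fibres, took 47.8%, 62.6% and 52.4% of the heavy chain sum across the OE libraries, with 65.4% for the library labelled Ctrl 1 against 62.7% and 64.2% for Ctrl 2 and 3. Myh1, the IIx chain, took 32.9%, 24.9% and 27.8% across the OE libraries, with 22.8% for the library labelled Ctrl 1 against 18.5% and 19.4% for Ctrl 2 and 3. The groups did not overlap for either share, though OE 2 and Ctrl 2 were nearly equal for Myh4. Myh2, the IIa chain, took 8.74% to 14.3% and overlapped. These shares were singled out after their values were seen and carry no test. Myh2, Myh1, Myh4 and Myh8 follow each other on chromosome 11 (GRCm38, plus strand, 67171027 to 67308634) and are alike in sequence, so reads could be split between them, and their single values are uncertain. Myh4 itself measured 69.5, 54.9 and 64.6 FPKM across the OE libraries, with 66.9 for the library labelled Ctrl 1 against 13.4 and 31.3 for Ctrl 2 and 3. Myh1 measured 47.9, 21.8 and 34.4 FPKM across the OE libraries, with 23.3 for the library labelled Ctrl 1 against 3.97 and 9.42 for Ctrl 2 and 3.

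**Figure D3:**
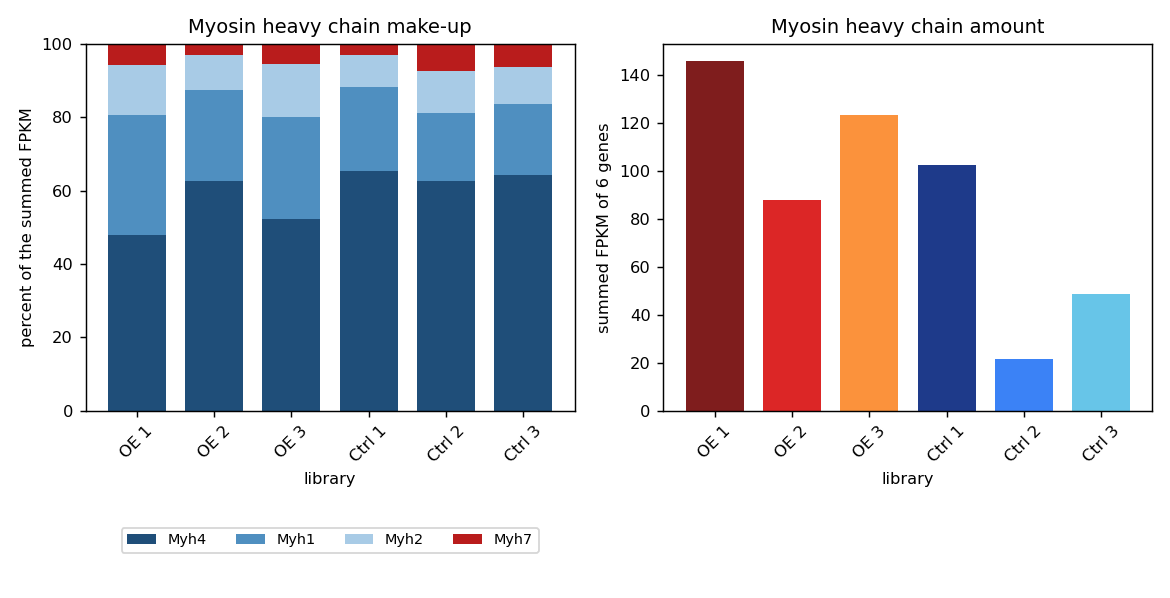
Left, percent of the summed FPKM of 6 sarcomeric myosin heavy chain genes taken by Myh4, Myh1, Myh2 and Myh7 in each library (Myh3 and Myh8 together are below 0.2% and not visible). Right, that summed FPKM, which runs from 21.4 in Ctrl 2 to 146 in OE 1.

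A ratio of a slow to a fast isoform of the same protein compares both within a library, and 9 such pairs were computed. In 8 of the 9 pairs the lowest ratio was that of the library labelled Ctrl 1, and in 7 of the 9 the highest was that of Ctrl 2. Tnni1 came to 3.61%, 1.67% and 3.23% of Tnni2 across the OE libraries, with 1.42% for the library labelled Ctrl 1 against 5.19% and 4.66% for Ctrl 2 and 3. Tnnc1 came to 5.68%, 3.78% and 4.25% of Tnnc2 across the OE libraries, with 2.58% for the library labelled Ctrl 1 against 11.2% and 7.62% for Ctrl 2 and 3. Myl3 came to 11.5%, 10.4% and 8.51% of Myl1 across the OE libraries, with 8.23% for the library labelled Ctrl 1 against 22% and 23.3% for Ctrl 2 and 3. The Ctrl libraries thus held both ends of the order in these pairs, with the OE libraries between them.

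The troponin T pair differed most, since Tnnt1 stayed level while Tnnt3 did not. Tnnt1 came to 7.99%, 8.44% and 6.96% of Tnnt3 across the OE libraries, with 6.17% for the library labelled Ctrl 1 against 39.3% and 25.4% for Ctrl 2 and 3. Its mean log2 ratio was -3.68 ± 0.14 for OE against -2.44 ± 1.40 for Ctrl (SD, n = 3), with an exact two-sided permutation p = 0.4. Across the 9 pairs, 7 had the lower mean ratio in OE and 2 the higher. Exact two-sided permutation p-values ran from 0.3 to 0.8, and from 0.675 to 0.8 after Benjamini-Hochberg adjustment over the pairs, where 3 against 3 libraries allow no p below 0.1, so no pair could pass. Without the library labelled Ctrl 1 the Tnnt1 to Tnnt3 difference moved from -1.24 to -2.02 and that of Myl2 to Mylpf from -0.92 to -1.54, and the first was -0.69 without Ctrl 2.

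**Figure D4:**
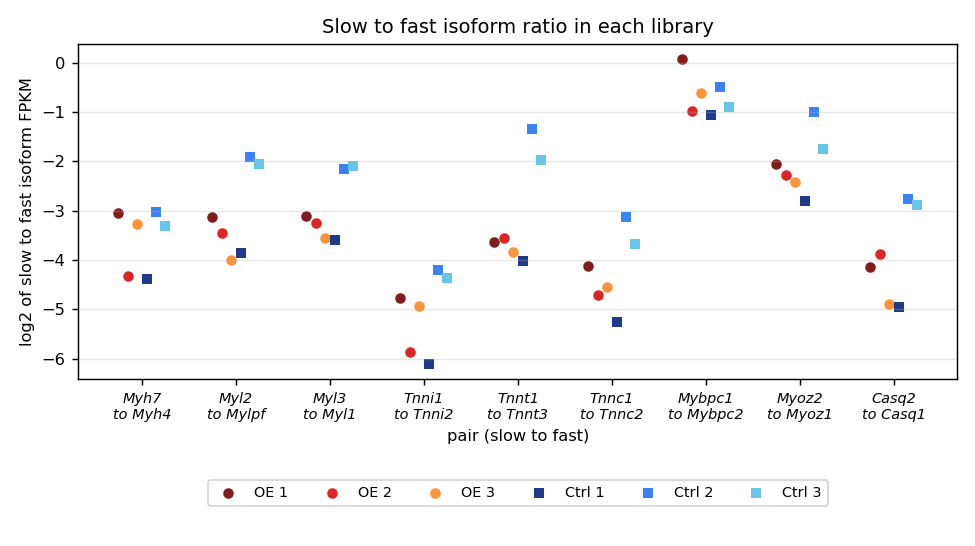
Log2 ratio of slow to fast isoform FPKM, each with 0.1 added, for 9 pairs, with circles for OE and squares for Ctrl libraries. The library labelled Ctrl 1 is lowest in 8 pairs and Ctrl 2 highest in 7, with the OE libraries mostly between them.

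Between some pairs of libraries the gap moved with transcript length. For the 36 members tested other than tropomyosins, Ctrl 3 exceeded Ctrl 2 by a median ratio of 1.31 in the 16 genes whose longest annotated transcript is under 2000 bases, 1.61 in 10 genes of 2000 to 5000 bases, and 2.12 in 10 genes over 5000 bases. Over all genes tested with values above 0 in every library (11765), the same ratio was 0.790, 0.946 and 1.18. Across the 36 members Spearman's rho between length and this ratio was 0.73, against 0.60 over all genes, as a description across genes of 1 pair of libraries. OE 2 over OE 1 ran the other way, at 0.759, 0.626 and 0.525 in the members and 1.27, 1.06 and 0.829 over all genes. Its rho was -0.57 in the members (-0.51 over all genes). For Ctrl 3 over the library labelled Ctrl 1 rho was 0.55 (0.39 over all genes). For OE 3 over OE 2 it was 0.35 (0.23 over all genes). The remaining pairs within a group showed less of this. There rho was 0.21 for Ctrl 2 over the library labelled Ctrl 1 (0.086 over all genes) and -0.26 for OE 3 over OE 1 (-0.17 over all genes). The median difference between groups was 1.59 in the short, 0.92 in the middle and 0.88 in the long members, and 13 of the 19 calls made without the library labelled Ctrl 1 were short members. The part of length in the difference was not tested, and the added 1 FPKM shrinks the differences of low values.

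**Figure D5:**
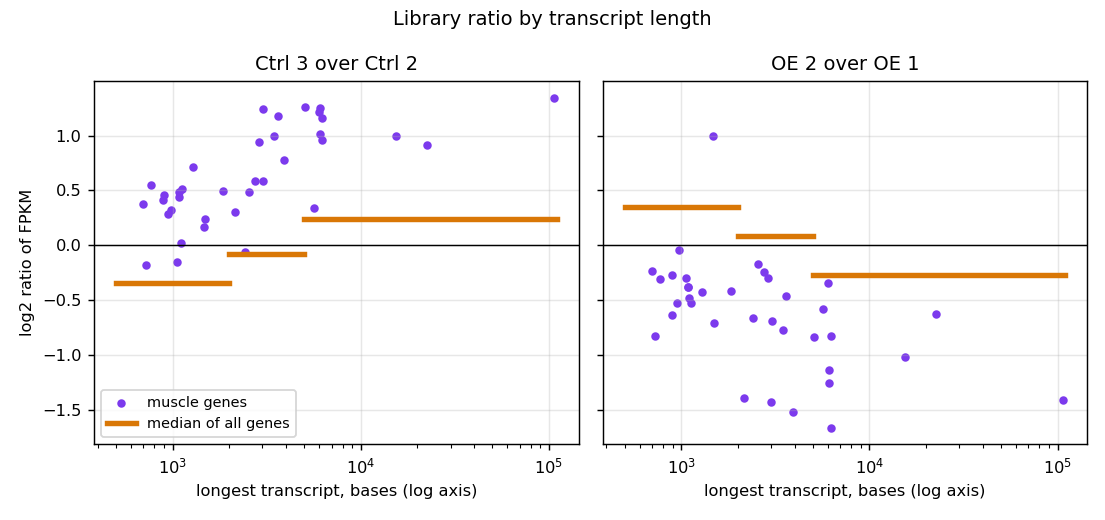
Log2 ratio of FPKM between 2 libraries of 1 group against the longest annotated transcript (log axis), for 36 muscle genes as points and for all genes tested as the median of 3 length classes in bars. The ratio rises with length for Ctrl 3 over Ctrl 2 and falls for OE 2 over OE 1, in muscle genes and over all genes.

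Further muscle genes outside the list followed it. Of 25 other genes of contraction and coupling, 20 were tested, all with a positive difference and a median of 0.75. Of 12 genes of muscle metabolism, 12 were positive with a median of 1.13. None passed with 6 libraries (limma, adjusted over all genes), with 8 and 7 at an unadjusted p under 0.05, and 5 and 9 were called higher without the library labelled Ctrl 1. Lmod3, among the 8, and Stac3, among the 5, passed the filter of that fit through the OE libraries alone, so they had to differ. Car3, a carbonic anhydrase of muscle and fat, measured 209, 166 and 130.2 FPKM across the OE libraries, with 178 for the library labelled Ctrl 1 against 15.7 and 21.8 for Ctrl 2 and 3. Eno3, the muscle enolase, measured 69.3, 55.7 and 77.3 FPKM across the OE libraries, with 65.8 for the library labelled Ctrl 1 against 15.3 and 21.7 for Ctrl 2 and 3. Cryab, a chaperone of the Z-disc, averaged 38.7 ± 11.3 FPKM for OE against 20.1 ± 14.6 for Ctrl (SD, n = 3). In both lists the library labelled Ctrl 1 was again near the OE libraries, and Ctrl 2 was the lowest in 24 of 25 and 12 of 12 genes.

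Regulators of muscle formation were near 0 in all libraries. Myod1, Myog and Myf5, factors that set the muscle fate, stayed at or below 0.168 FPKM, and Pax7, the marker of satellite cells, at or below 0.0177. Myf6, the family member kept by mature fibres, measured 1.17, 1.013 and 1.18 FPKM across the OE libraries, with 0.634 for the library labelled Ctrl 1 against 0.430 and 0.612 for Ctrl 2 and 3. Of the 18 regulators with a row, 4 were tested and none passed (limma, 3 at an unadjusted p under 0.05, 0 called without the library labelled Ctrl 1). Myf6 is among these 3 and passed the filter through the OE libraries alone, so it had to differ. Of the 10 heart markers, Myl4 (given above) and Tnni3, cardiac troponin I, were tested. Tnni3 measured 1.31, 1.95 and 1.06 FPKM across the OE libraries, with 1.52 for the library labelled Ctrl 1 against 1.61 and 1.46 for Ctrl 2 and 3, so the groups overlapped. Mybpc3 and Tnnt2, other heart muscle proteins, reached 0.687 and 0.331 FPKM, Nppa and Nppb did not exceed 0.0815, and Myl7 and Nkx2-5 were listed at 0 in all libraries. Of 9 smooth muscle genes 5 were tested, with a median of 0.39 and none called (limma, 0 at an unadjusted p under 0.05), and in 6 of the 9 Ctrl 2 and Ctrl 3 were the 2 lowest libraries. Acta2, smooth muscle actin, measured 20.8, 13.8 and 8.55 FPKM across the OE libraries, with 17.4 for the library labelled Ctrl 1 against 8.33 and 7.05 for Ctrl 2 and 3. Tagln, transgelin, measured 13.0, 9.62 and 4.67 FPKM across the OE libraries, with 13.6 for the library labelled Ctrl 1 against 3.94 and 3.84 for Ctrl 2 and 3. Smtn, smoothelin, varied least, between 20.1 and 23.4 FPKM. Among 15 non-muscle isoforms of the same families 14 were tested, 10 of them with a negative difference and a median of -0.27. Actg1, cytoplasmic gamma-actin, measured 1538, 2041 and 1293 FPKM across the OE libraries, with 2163 for the library labelled Ctrl 1 against 2237 and 1906 for Ctrl 2 and 3. Ckb, the brain-type creatine kinase that osteoclasts use, was the only gene among them called without the library labelled Ctrl 1. It stood at 343, 253 and 153 FPKM in OE, 318 in that library, and 43.0 and 30.8 in Ctrl 2 and Ctrl 3.

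Markers of bone, cartilage and fibrous tissue were also low in Ctrl 2 and Ctrl 3. The bone and cartilage sums ordered the OE libraries differently from the muscle sum. The tendon and periosteum sum was lowest of the OE libraries in OE 2, as the muscle sum was. Ctrl 2 and Ctrl 3 were the 2 lowest libraries in 10 of 12 osteoblast and osteocyte genes, 10 of 10 cartilage genes and 7 of 8 tendon and periosteum genes. The share of all genes with this order was not computed. Median differences with all libraries were 1.84, 2.28 and 1.22 in these lists, beside 1.10 for the muscle members, and 0 genes of these lists were called (limma). The summed level of the 12 osteoblast and osteocyte genes was 6402, 5287 and 3395 FPKM across the OE libraries, with 5057 for the library labelled Ctrl 1 against 453 and 390.2 for Ctrl 2 and 3. Cartilage genes summed to 553, 625 and 347 FPKM across the OE libraries, with 526 for the library labelled Ctrl 1 against 30.7 and 36.1 for Ctrl 2 and 3, and none of the 10 was at 0 in any library. Tendon and periosteum genes summed to 146, 80.5 and 98.0 FPKM across the OE libraries, with 88.8 for the library labelled Ctrl 1 against 18.7 and 22.5 for Ctrl 2 and 3. OE 3 was thus lowest of the OE libraries for bone and cartilage genes and highest for the muscle sum, where OE 1 was close. Of the 41 members, 25 were highest in OE 1 and 12 in OE 3. The part of these tissues in the muscle values was not tested. Neutrophil genes were lower in OE in 10 of 10 (median -0.63) without passing the test, and in 0 of 10 were Ctrl 2 and Ctrl 3 both the lowest.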

How the data were processed

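Groups and replicate numbers of the 6 femur libraries, 3 OE and 3 Ctrl, follow their titles. The submitters' processing notes name TopHat2, Cufflinks, DESeq and mm10, without versions, roles or strand setting. The authors deposited 1 FPKM value for each gene and no counts, as the file headers say. Of 22824 rows a library, 21606 have Ensembl identifiers, 21172 of them matched to GENCODE M21 symbols (GRCm38), and 1218 are unannotated. How reads shared between similar genes were counted is not stated.

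Values were modelled as log2(FPKM + 1) with limma 3.58.1 (lmFit, eBayes with trend, R 4.3.3) over genes reaching 1 FPKM in 3 or more of the libraries fitted, with Benjamini-Hochberg adjustment over all genes and a threshold of 0.05. The step was tested on simulated data. Ratios used a pseudocount of 0.1 and an exact permutation test; tables used Python 3.11.15, pandas 2.3.3 and scipy 1.17.1. Members, lists, pairs and tests were chosen with earlier results of these data known. Named are Wnt7b, all members, the 4 most abundant genes of a further list, and genes singled out after their values were seen. The last are Myf6, Myod1, Myog, Myf5, Pax7, Myh6, Ckb, Nppa, Nppb, Lmod3, Stac3 and those listed at 0. Of 20 lists, adipocyte, Schwann cell and endothelial markers had medians of 0.35, 0.02 and 0.13 and erythroid and B-cell markers 0.03 and 0.99; none was called with 6 libraries, and 1 adipocyte and 2 Schwann cell genes were without the library labelled Ctrl 1. Alternatives were the pseudocount, the filter, scaling, the trend, a replicate block and leaving out each library.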

Additional observations from a re-analysis of the deposited data

How the results depend on the processing

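With all 6 libraries, 0 genes and 0 members were called at a pseudocount of 0.1, with no filter, with a filter of 5 FPKM, with either scaling and without the trend. With the replicate number as a replicate block the counts were also 0 and 0 and the median difference of the members 1.10. In that fit 35 of 39 members had an unadjusted p under 0.05 (limma) in either direction. Over all 12177 genes, 1170 were higher and 627 lower in OE at that p. The replicate numbers were not taken to pair the libraries. Deviations of same-numbered libraries correlated at r = 0.44, 0.087 and 0.31, and OE 2 correlated better with the library labelled Ctrl 1 (r = 0.14). Leaving out 1 library gave 0 to 605 genes, 0 to 19 members and 10 to 35 members without overlap. The highest values were those without the library labelled Ctrl 1, where 17.7% of all genes did not overlap in that direction. Casq2, Ttn and Actc1, among those 35, passed the filter there through the OE libraries alone, so they had to differ. When OE 2 was left out, 27 members did not overlap, as in 1211 of 12032 genes. The median difference ran from 0.82 to 1.44. In settings chosen after seeing the data, all without the library labelled Ctrl 1, genes and members called and members without overlap were 617, 18 and 35 with trimmed-mean scaling, and 369, 14 and 33 with scaling without haemoglobin, neutrophil and muscle list genes. They were 954, 22 and 32 without OE 3 as well, and 2072 of 12019, 2353 of 12025 and 2364 of 11474 genes had all OE values higher in these settings. Myom1 ranged from -0.026 (without OE 3) to 0.540 (without OE 2) and turned to -0.096 without OE 3 and the library labelled Ctrl 1. The differences in heavy chain shares turned when taken from mean log2 levels, to -1.18 (fast), 0.94 (slow) and 0.24 (developmental) percentage points, and ran from -0.044 to 2.15, -2.09 to 0.054 and -0.063 to -0.0097 with 1 library left out. Slow to fast differences in log2 that turned were those of Myh7 to Myh4 (-0.14 at a pseudocount of 1, and -0.38 to 0.42 with 1 library left out), Tnni1 to Tnni2 (-0.90 to 0.046), Tnnc1 to Tnnc2 (-1.05 to 0.012) and Myoz2 to Myoz1 (-0.88 to 0.020). The cause was not tested. With 3 libraries a group and unknown depth, small differences in low genes such as Myh3 and Myh8 were not detectable.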
